A study of Mus musculus with 6 samples.

Results

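The globin genes encode the protein chains of haemoglobin, and their open-chromatin regions were compared between Utx-knockout and wild-type bone marrow progenitors. The set held every ATAC-seq peak in or within 50 kb of the alpha-type genes Hba-x, Hba-a1 and Hba-a2 on mouse chromosome 11 and of the beta-type genes Hbb-y, Hbb-bh1, Hbb-bs and Hbb-bt on chromosome 7. ATAC-seq marks open chromatin by the sites where a transposase can insert sequencing adapters. Overlapping peaks, by 1 bp or more in any of the 6 lists, were joined into regions, which gave 36 regions in the globin windows, 18 in each, of 75961 in the whole series. Knockout samples 1, 2 and 3 had 8, 12 and 10 peaks in the 2 windows together, and wild-type samples 1, 2 and 3 had 33, 32 and 34.

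The knockout group (Utx-/-, 3 samples) lacks the histone demethylase UTX, and the wild-type group (Utx +/+, 3 samples) carries it. Both came from C57BL/6 bone marrow depleted of lineage-positive cells, which leaves a preparation enriched for haematopoietic stem and progenitor cells, with no treatment or time point in the labels. The sources used here do not give the age of the mice, the deleted part of Utx, any Cre driver, or whether cells of several mice were pooled. Nothing in the labels says that samples came from separate animals, so p-values measure only the spread between these samples, which may be technical. Each deposited list holds peak positions alone, so the presence, number and width of peaks were the measurements and the depth behind them is unknown. The knockout lists held 44576 to 50249 peaks and the wild-type lists 57405 to 57917.

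Red cell precursors make haemoglobin from paired alpha-type and beta-type chains. The beta-type genes are served by a locus control region, a string of enhancers upstream of the embryonic gene Hbb-y, and the alpha-type genes by enhancers that lie mostly in introns of the neighbouring gene Nprl3. Hba-x, Hbb-y and Hbb-bh1 are the embryonic genes. Hba-a1, Hba-a2, Hbb-bs and Hbb-bt are expressed in adult red cell precursors. GATA1, KLF1 and the CCAAT-binding factor NF-Y are known to bind globin promoters through GATA, CACCC and CCAAT sequences.

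The promoters on which the results turn are shown as the 250 bases before the annotated gene start, from RefSeq (GRCm38.p6, the assembly of mm10), 5′ to 3′ on the strand of the gene. Capitals mark GATA, CACCC and CCAAT on either strand. Hbb-bt (chr7:103813924-103814173, minus strand) and Hbb-bs (chr7:103827929-103828178, minus strand) are shown because their promoters had peaks in every wild-type and no knockout sample, Hbb-y (chr7:103853208-103853457, minus strand) because it had a peak in none, and Hba-a1 (chr11:32283422-32283671, plus strand) because its copy at Hba-a2 is identical.
Hbb-bt: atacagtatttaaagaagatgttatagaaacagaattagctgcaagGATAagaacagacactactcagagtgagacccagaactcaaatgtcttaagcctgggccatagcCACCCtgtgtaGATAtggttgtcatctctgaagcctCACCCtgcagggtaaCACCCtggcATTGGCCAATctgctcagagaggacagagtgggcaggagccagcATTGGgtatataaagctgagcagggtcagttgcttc
Hbb-bs: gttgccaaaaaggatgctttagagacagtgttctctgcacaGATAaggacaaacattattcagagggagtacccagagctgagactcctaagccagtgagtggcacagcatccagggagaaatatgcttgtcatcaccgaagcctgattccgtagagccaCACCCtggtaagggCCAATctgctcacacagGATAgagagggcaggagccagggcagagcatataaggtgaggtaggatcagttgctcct
Hbb-y: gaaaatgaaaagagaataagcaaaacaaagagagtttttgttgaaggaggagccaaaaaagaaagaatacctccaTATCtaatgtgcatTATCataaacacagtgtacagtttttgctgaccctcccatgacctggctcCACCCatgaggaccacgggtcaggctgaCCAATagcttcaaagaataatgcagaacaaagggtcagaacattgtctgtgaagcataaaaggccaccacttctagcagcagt
Hba-a1: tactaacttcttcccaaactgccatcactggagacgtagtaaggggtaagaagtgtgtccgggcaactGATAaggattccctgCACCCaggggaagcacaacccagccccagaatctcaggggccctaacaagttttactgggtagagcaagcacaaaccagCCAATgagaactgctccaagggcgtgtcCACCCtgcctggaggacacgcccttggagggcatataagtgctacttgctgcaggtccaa

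The Hbb-bt stretch held 2 matches of GATA, 3 of CACCC and 3 of CCAAT. Hbb-bs held 2, 1 and 1, Hbb-y held 2, 1 and 1, and Hba-a1 held 1, 2 and 1. Hba-x, not printed, held 3 matches of GATA, 2 of CACCC and 0 of CCAAT. Of 32851 promoter stretches of the same length, 53.6% held GATA, 52.0% held CACCC and 33.8% held CCAAT. The TATA box letters TATAAA, found in 12.4% of the stretches, stood once in Hbb-bt and once in Hba-x, and CATAAA, found in 10.8%, stood 2 times in Hbb-y, once overlapping a GATA match. Only exact letters were counted, so a missing match does not show that a TATA box is missing. The printed stretches of Hbb-bs and Hba-a1 hold the similar letters CATATAAG near the gene start. The ETS core GGAA, found in 93.4%, had 0 matches in Hbb-bt and Hbb-y, 1 in Hbb-bs and in Hba-x, and 3 in Hba-a1 and in Hba-a2. Hba-a1 and Hba-a2 were identical over 297 of 297 aligned bases from before to after their starts, while Hbb-bt and Hbb-bs matched at 168 of 299 without gaps. Reads that lie wholly within these identical alpha-globin bases therefore cannot be assigned to 1 copy. The sources used here do not give the read length or say how such reads were handled.

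Open chromatin at the beta-globin locus was nearly absent from the knockout peak lists. The window, chr7:103762524-103903207 in mm10, held 2, 4 and 3 peaks in knockout samples 1, 2 and 3, against 17, 16 and 18 in wild-type samples 1, 2 and 3. The groups did not overlap, and the knockout mean was 17.6% of the wild-type mean (3 ± 1 and 17 ± 1 peaks, SD, n = 3 each; difference -14.0, two-sided exact permutation p = 0.1). Peaks covered 1061, 1522 and 1382 bases of the window in knockout samples and 8580, 9461 and 11815 in wild-type samples (difference -8630 bases, exact permutation p = 0.1). As a share of each sample's own list, which is shorter in knockout, the window took 0.00637% ± 0.0018 of knockout peaks and 0.0295% ± 0.00181 of wild-type peaks (SD, n = 3 each, exact permutation p = 0.1). With 3 samples against 3, an exact permutation p of 0.1 is the smallest possible, so no comparison over samples could pass 0.05. The same p held after Benjamini-Hochberg adjustment over the 7 window comparisons made.

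Of the 18 beta-globin regions, 12 (66.7%) were lost, meaning that all 3 wild-type and no knockout samples had a peak, and 0 were gained, the opposite case. Over all 75961 regions, 10.6% were lost and 4.69% gained. Of the 16 beta-globin regions that every wild-type sample had, 12 (75%) were lost, where the share over the series was 17.3%. A further 2 regions had a peak in every sample, which was the case for 41.0% of regions over the series, and 4 had peaks in some samples only. In bulk material, fewer cells with an open site and a less open site per cell cannot be told apart.

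**Figure D1:**
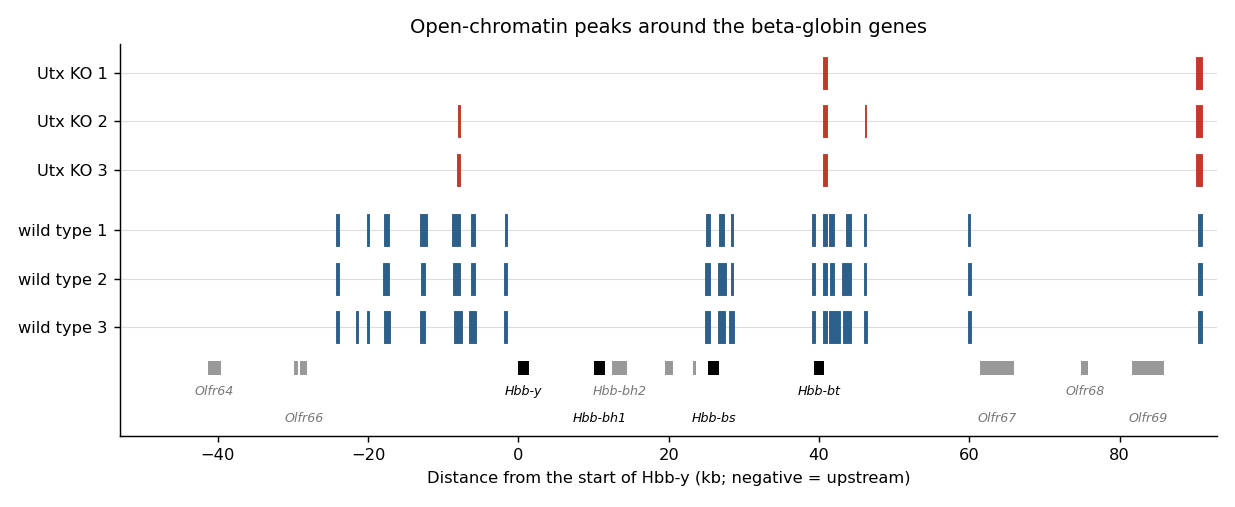
Positions of peaks in the beta-globin window, in kb from the start of Hbb-y along the direction of transcription. Each row is 1 sample (red for Utx knockout, blue for wild type). Below, the globin genes of the set are in black and all other genes, Hbb-bh2 and Hbb-bh3 included, in grey. Wild-type peaks form 1 group upstream of Hbb-y and others around Hbb-bs and Hbb-bt, while knockout rows keep the peak at the end of Hbb-bt, the one at the far right and few others.

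Upstream of Hbb-y, where the locus control region lies, 8 regions were found and 5 were lost, where 10.6% of all regions were. Knockout samples 1, 2 and 3 had 0, 1 and 1 peaks in this stretch, and wild-type samples 1, 2 and 3 had 7, 6 and 8. The lost regions lay 1.7, 6.1, 12.6, 17.5 and 24.1 kb upstream of the gene start, measured to their midpoints, and none of them lies inside an annotated gene.

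The region 8.2 kb upstream (chr7:103860773-103861980) was the only one of the stretch that kept a peak in any knockout sample. Its peaks covered 0, 247 and 331 bases in knockout samples 1, 2 and 3 and 1054, 1041 and 1063 bases in wild-type samples 1, 2 and 3. Where a knockout peak was called there, it was narrower than each wild-type peak.

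The widest lost region of the stretch on average, 17.5 kb upstream (chr7:103870248-103871175), covered 0 bases in every knockout sample and 693, 741 and 871 bases in the wild-type samples. At 12.6 kb (chr7:103865404-103866252) the wild-type samples had 838, 607 and 638 bases. At 6.1 kb (chr7:103858842-103859840) they had 511, 526 and 999 bases. All 3 regions thus had a peak of over 500 bases in each wild-type list and none in a knockout list. The region at 24.1 kb covered 442 to 524 bases and the one at 1.7 kb covered 342 to 416 bases in wild type. The remaining 2 regions of the stretch, 20 and 21.5 kb upstream, had peaks in 2 and 1 wild-type samples and in 0 knockout samples.

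At the adult genes Hbb-bs and Hbb-bt, both promoters had a peak in wild type alone. The Hbb-bt promoter region (chr7:103813729-103814202) covered 0 bases in each knockout sample and 404, 398 and 474 bases in wild-type samples 1, 2 and 3. The Hbb-bs promoter region (chr7:103827729-103828417) covered 0 bases in each knockout sample and 559, 609 and 689 bases in the wild-type samples. Wild-type peaks took in 295 to 300 of the 300 bases from 250 before to 50 after the start of Hbb-bt, and all 300 of those at Hbb-bs, so both stretches printed above lay almost wholly under a peak.

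Lost regions also flanked the 3′ ends of both genes. One overlapped the 3′ end of Hbb-bs (chr7:103825643-103826698), with 0 bases in knockout samples and 645, 1056 and 963 bases in wild-type samples, and another lay 1334 bp beyond that end. Downstream of Hbb-bt, the regions chr7:103808951-103810161 and chr7:103810407-103811844 were lost, the second 680 bp from the gene. They covered 657, 1183 and 1016 bases and 540, 626 and 1438 bases in wild-type samples 1, 2 and 3, which makes the first of them the widest lost region of the beta-globin window on average, at 952 ± 269 bases (SD, n = 3). The last lost region, with 221 to 438 bases in wild type, lay 1115 bp from an olfactory receptor gene.

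In contrast, the region at the very 3′ end of Hbb-bt (chr7:103812118-103812681) was kept. It covered 483, 549 and 563 bases in knockout samples 1, 2 and 3 and 548, 529 and 501 bases in wild-type samples 1, 2 and 3, and the groups overlapped. The same gene thus held a kept peak at its 3′ end and a lost one at its promoter. The other region found in all samples lay 90.5 kb downstream of the Hbb-y start (chr7:103762219-103763101) and was wider in knockout, with 823, 816 and 793 bases against 420, 507 and 490 bases. The groups did not overlap there. Over the series, knockout samples had more bases under peaks without overlap in 12.8% of the regions that every sample had. A region 46.2 kb downstream had a peak in knockout sample 2, of 214 bases, and in all 3 wild-type samples, of 268 to 356 bases.

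The embryonic genes Hbb-y and Hbb-bh1 had no peak inside them or in the 1 kb on either side in any of the 6 samples. The same was true of the other 9 annotated genes of the window, which include 5 olfactory receptor genes. The lost regions were therefore at or near the adult genes, upstream of Hbb-y and downstream of Hbb-bt. None lay in or within 1 kb of an embryonic gene, and the nearest to one lay 1470 bp from Hbb-y.

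**Figure D2:**
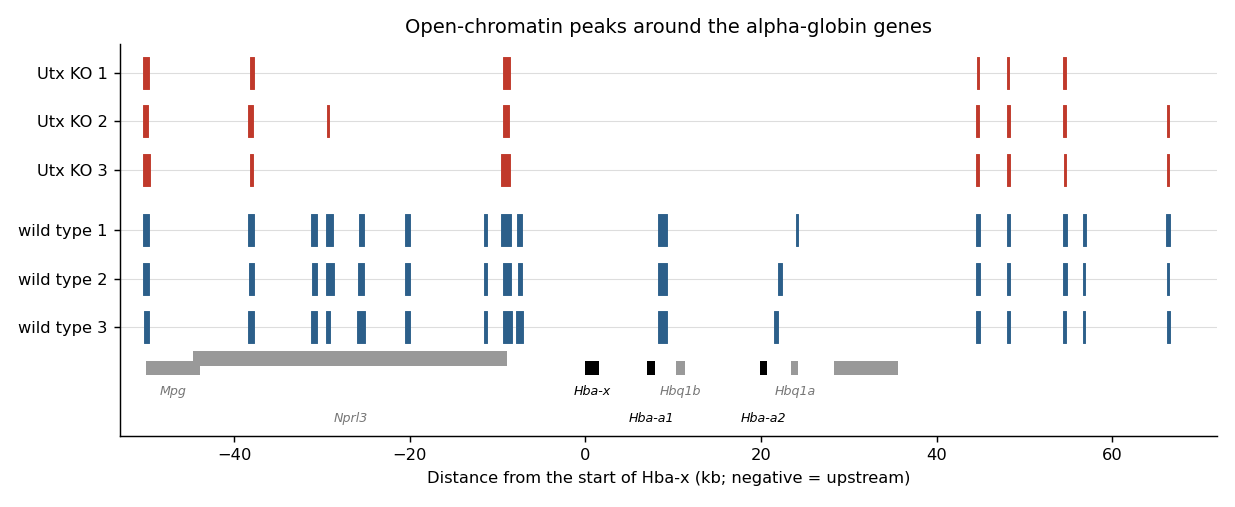
Positions of peaks in the alpha-globin window, in kb from the start of Hba-x along the direction of transcription. Each row is 1 sample (red for Utx knockout, blue for wild type). Below, the globin genes of the set are in black and all other genes, Hbq1a and Hbq1b included, in grey. The knockout rows keep peaks at both edges and 9.0 kb upstream of Hba-x, and lack most peaks of the stretch between 7 and 31 kb upstream and the one beside Hba-a1.

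The alpha-globin window also held fewer peaks in knockout samples. It spans chr11:32226600-32347310 and held 6, 8 and 7 peaks in knockout samples 1, 2 and 3 and 16 peaks in each wild-type sample. The knockout mean was 43.8% of the wild-type mean (7 ± 1 against 16 ± 0 peaks, SD, n = 3 each; difference -9.0, two-sided exact permutation p = 0.1). Peaks covered 2407, 3036 and 2704 bases in knockout samples and 8736, 8641 and 9178 bases in wild-type samples (difference -6136 bases, exact permutation p = 0.1). The share of each sample's peaks was 0.015% ± 0.00148 in knockout and 0.0278% ± 0.000124 in wild type (SD, n = 3 each, exact permutation p = 0.1). Of 18 regions, 7 (38.9%) were lost and 0 gained, where the shares over all regions were 10.6% and 4.69%. A peak in all samples was found in 6 regions, where 41.0% of regions over the series had one, and 5 had peaks in some samples. Of the 15 that every wild-type sample had, 46.7% were lost, where the share over the series was 17.3%.

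Beta-globin peaks were a smaller part of the peaks in both windows in knockout samples, at 25%, 33.3% and 30% in samples 1, 2 and 3, against 51.5%, 50% and 52.9% in wild type (difference -22.0 percentage points, two-sided exact permutation p = 0.1). The groups did not overlap in this measure. They overlapped within 20 kb of the genes (difference -7.06 percentage points, exact permutation p = 0.6) and with the widest 50% of each sample's peaks (-4.52, exact permutation p = 0.6), so the difference between the clusters depends on both settings. Within 20 kb, the knockout mean of the alpha-globin peaks was 16.7% of the wild-type mean (1 against 6 peaks), and that of the beta-globin peaks was 13.6%. With the widest 50% of peaks the values were 19.4% for alpha-globin and 15.8% for beta-globin. The alpha-globin value of 43.8% thus moved by over 1.5 times under both settings.

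Inside Nprl3, a gene of the GATOR1 complex whose introns hold alpha-globin enhancers, 4 of 7 regions were lost, where 10.6% of all regions were. Knockout samples 1, 2 and 3 had 2, 3 and 2 peaks in or within 1 kb of the gene, and each wild-type sample had 7. The lost regions lay 30.9, 25.6, 20.3 and 11.4 kb upstream of Hba-x. Nprl3 was the only gene of the window other than a globin gene with a lost region in it or within 1 kb.

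The region 25.6 kb upstream (chr11:32250586-32251479) covered 0 bases in each knockout sample and 575, 597 and 894 bases in wild-type samples 1, 2 and 3. At 30.9 kb (chr11:32245350-32246066) the wild-type samples had 692, 606 and 663 bases, and at 20.3 kb (chr11:32256024-32256642) they had 540, 514 and 619 bases. None of the 3 had a knockout peak. The region at 11.4 kb had 333 to 429 bases in wild type, and 1 more lost region, 7.5 kb upstream and 1021 bp outside Nprl3 (chr11:32268728-32269476), had 566, 552 and 749 bases.

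Other regions of Nprl3 had peaks in knockout samples. The region 9.0 kb upstream of Hba-x (chr11:32267042-32268238), which overlaps an end of Nprl3, covered 824, 720 and 956 bases in knockout samples 1, 2 and 3 and 1066, 880 and 1051 bases in wild-type samples 1, 2 and 3. The groups overlapped. At 38.1 kb (chr11:32238154-32238863) the values were 388, 573 and 349 bases in knockout and 671, 595 and 695 in wild type, with no overlap. At 29.1 kb (chr11:32247016-32248001) only knockout sample 2 kept a peak, of 217 bases, against 811, 907 and 534 bases in wild type.

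At the alpha-globin genes themselves, 1 lost region lay 402 bp beyond Hba-a1 (chr11:32284888-32285931). It was the widest lost region of both windows on average, with 0 bases in each knockout sample and 995, 1001 and 1017 bases in wild-type samples 1, 2 and 3. The promoters of Hba-a1, Hba-a2 and Hba-x had no peak in any of the 6 samples, wild type included. For Hba-a1 and Hba-a2 this is read beside the identical copies described above, whose part in the missing peaks was not tested. From Hba-a2 to Hbq1a lay 3 regions, each with a peak in a single wild-type sample and in no knockout sample. The regions chr11:32298072-32298488, of wild-type sample 3, and chr11:32298499-32298973, of wild-type sample 2, lay side by side without overlap. The region chr11:32300636-32300858, of wild-type sample 1, lay inside Hbq1a.

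Downstream of Hba-a2, 3 regions had peaks in all samples, at 44.7, 48.2 and 54.6 kb from the Hba-x start. A region of 243 to 284 bases in wild type at 56.8 kb was lost, and one at 66.4 kb had a peak in all wild-type samples and in knockout samples 2 and 3. Of the 6 alpha-globin regions with a peak in every sample, all 6 had fewer bases under peaks on average in knockout, and in 4 the groups did not overlap. Over the series, 26.7% of the regions that every sample had were narrower in knockout without overlap.

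**Figure D3:**
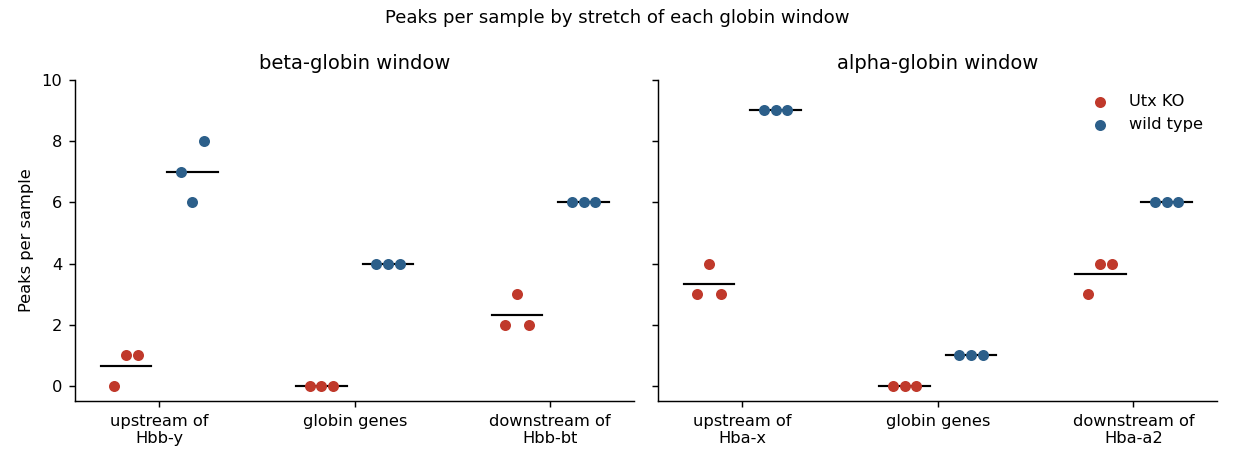
Number of peaks per sample (y axis) in 3 stretches of each globin window; points are samples (red, Utx knockout; blue, wild type) and bars are group means. No point of a knockout group reaches its wild-type group, and knockout points between the first and last globin gene are at 0 in both windows. Peaks are placed by the midpoint of their region, so the kept region that overlaps the end of Hbb-bt counts as downstream.

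Regions were also counted by their midpoints in 3 stretches of each window, a division chosen after the values were seen. The kept region that overlaps the end of Hbb-bt has its midpoint beyond the gene and so counts as downstream. Between the first and last beta-globin gene, knockout samples had 0 peaks each and wild-type samples 4 each, and downstream of Hbb-bt there were 2, 3 and 2 peaks in knockout samples and 6 in each wild-type sample. Upstream of Hba-x, knockout samples had 3, 4 and 3 peaks and wild-type samples 9 each. Downstream of Hba-a2, knockout samples had 3, 4 and 4 peaks and wild-type samples 6 each. In the wild-type samples, the median peak in a lost globin region was wider than 68.7% of its own sample's peaks, with a range of 6.91% to 93.9%.

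All 7 globin genes had fewer peaks in or within 50 kb in every knockout sample than in every wild-type sample. This was so for 32.8% of 36646 annotated genes with a peak in reach, and 5.47% had more, shares not matched for the number of peaks. The members share most of their peaks, since their 50 kb surroundings overlap. Hbb-bs and Hbb-bh1 each had 1, 3 and 2 peaks in knockout samples 1, 2 and 3 and 16, 15 and 17 in wild-type samples 1, 2 and 3. Hbb-y had 1, 3 and 2 in knockout and 15, 14 and 16 in wild type, and Hbb-bt had 2, 4 and 3 in knockout and 13 in each wild-type sample. Hba-a1 had 5, 6 and 5 in knockout and 14 in each wild-type sample. Hba-x had the same knockout values and Hba-a2 had 4, 6 and 5, both against 13 in each wild-type sample. Each gene had an exact permutation p of 0.1 and an adjusted p of 0.261 over all genes tested.

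**Figure D4:**
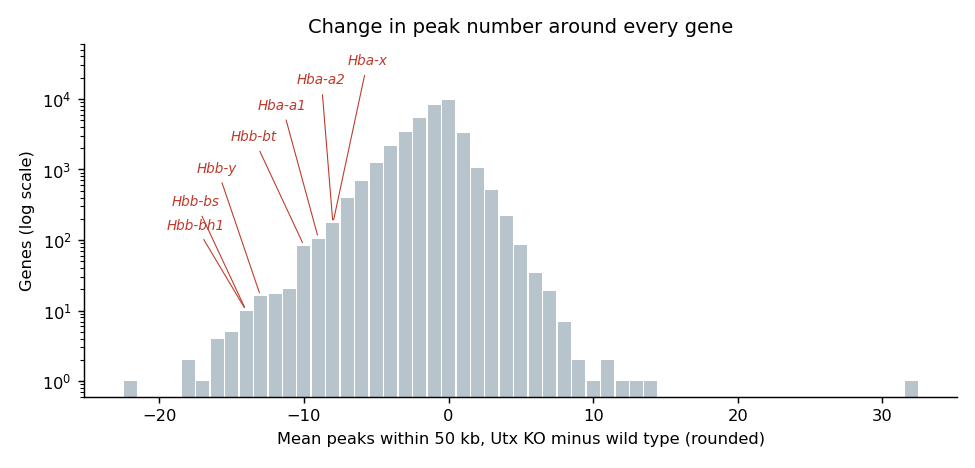
Histogram of the knockout minus wild-type difference in mean peaks within 50 kb (x axis, rounded to whole peaks) over 36646 genes (y axis, log scale), with the 7 globin genes marked. The globin genes stand in the lower tail, from -14.0 for Hbb-bs and Hbb-bh1 to -7.67 for Hba-x.

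The median difference over all genes was -1.0 peak, and the median over the 7 globin genes was -10.0. By the number of peaks, which favours genes with many peaks in reach, 20 of the 36646 genes (0.0546%) had a decrease at least as large as that of Hbb-bs (-14.0 peaks), neighbours with the same peaks included. For Hbb-bt (-10.0) the number was 127, or 0.347%, and for Hba-x (-7.67) it was 436, or 1.19%. By the knockout mean as a percentage of the wild-type mean, over the 19647 genes with a wild-type mean of at least 5 peaks, 59 (0.3%) were at or below Hbb-bs (12.5%), 183 (0.931%) at or below Hbb-bt (23.1%) and 933 (4.75%) at or below Hba-x (41.0%). Protein-coding genes whose 6 peak counts were among those most like those of Hbb-bs, by Euclidean distance and more than 200 kb from any globin gene, were Msantd1 (distance 2.45; 2, 2 and 1 peaks in knockout, 15, 14 and 16 in wild type), Nacc2 (4.90), Sh3tc2 and Rnf216 (5.10 each). Those most like Hba-a1 were Wdtc1, Svop and Lactb (2.0 each), and Smo and Armc6 (2.24 each). Likeness here is over 6 samples and in the number of peaks alone.

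Among 15 regulators and partners of the globin genes with a value, 12 had fewer peaks within 50 kb in every knockout than in every wild-type sample, 0 had more and 3 overlapped, where the share over all genes was 32.8%. Of the 36646 genes behind that share, 19647 had a wild-type mean of at least 5 peaks. The share was not matched to the regulators for the number of peaks in reach. The list's median difference was -4.33 peaks. Gata1, the erythroid master factor, had 1 peak in each knockout sample against 5, 6 and 5 in wild type, with 4 of 6 regions lost, where 10.6% of all regions were. Its cofactor gene Zfpm1 (FOG1) had 9, 11 and 10 peaks against 30, 34 and 33, with 13 of 36 regions lost. Partners of GATA1 in the complex that loops the locus control region to the globin genes had fewer peaks too, but not all had more lost regions than the series. Lmo2 had 13, 13 and 9 peaks in knockout against 23, 21 and 22 in wild type, with 7 of 25 regions lost (28%). Tal1 had 10, 9 and 7 against 12, 17 and 14, with 2 of 16 lost (12.5%), and Ldb1 had 7, 8 and 7 against 12, 16 and 13, with 1 of 18 lost (5.56%). The shares of lost regions at Tal1 and Ldb1 were thus near or below that over all regions.

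Klf1, which activates adult beta-globin, had 7, 7 and 8 peaks in knockout against 11, 10 and 12 in wild type, with 3 of 13 regions lost (23.1%). The products of Sox6 and Bcl11a hold embryonic globin genes silent. Sox6 had 10, 8 and 6 peaks in knockout against 19, 21 and 23 in wild type, with 7 of 27 regions lost (25.9%). Bcl11a had 13, 18 and 19 against 28, 20 and 27, with 5 of 36 lost (13.9%), near the 10.6% of all regions. Alas2, the first enzyme of red cell haem synthesis, had 1 peak in each knockout sample against 3, 3 and 4 in wild type. Nfix, Lyl1 and Nfe2, which encodes a factor that binds the locus control region, had 5 of 29, 3 of 17 and 1 of 15 regions lost (17.2%, 17.6% and 6.67%), and Nfix and Lyl1 are neighbours and share peaks. Nfe2 was below the share over all regions, and Nfix and Lyl1 were above it by less than Gata1, Zfpm1 and Lmo2 were. The groups overlapped for 3 regulators. The globin repressor gene Zbtb7a had 14, 15 and 13 peaks in knockout against 14, 14 and 15 in wild type, Kdm1a, encoding the histone demethylase LSD1, had 2 in each knockout sample against 2, 3 and 5, and Myb, a progenitor factor, had 15, 21 and 16 against 17, 19 and 15. Gained regions lay near Myb (4), Lmo2 (1) and Zbtb7a (1). With all lists cut to the widest 44576 peaks, 6 of the 15 regulators were lower without overlap, namely Gata1, Zfpm1, Lmo2, Nfe2, Sox6 and Alas2, against 15.98% of all genes. The groups no longer stood apart for Tal1 (difference -2.67 peaks), Ldb1 (-2.33), Klf1 (-2.0), Lyl1 (-1.33), Bcl11a (-5.0) and Nfix (-3.67), so their calls depend on this cut. It drops the narrowest peaks of the longer lists, so list length and peak width change together and cannot be told apart. All 7 globin genes were still lower without overlap.

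**Figure D5:**
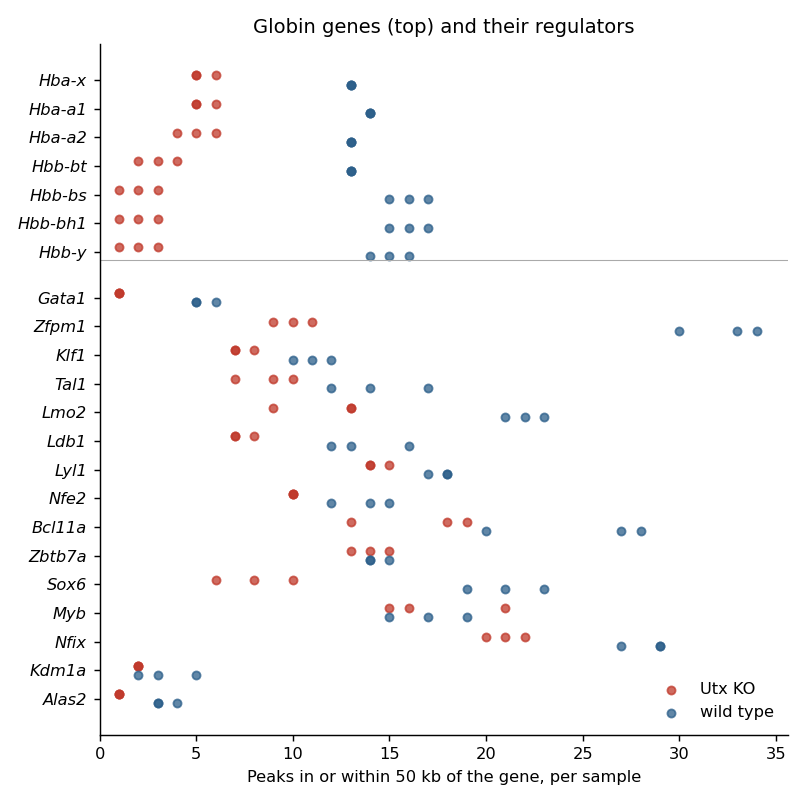
Peaks in or within 50 kb of each gene (x axis), 1 point per sample (red, Utx knockout; blue, wild type), for the 7 globin genes above the line and 15 regulators below it. All 7 globin genes and 12 of the 15 regulators show every knockout point left of every wild-type point.

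Marker genes of blood cell types were counted as peaks in or within 20 kb, where 24.7% of 32292 genes were lower and 5.11% higher in knockout without overlap. Those shares were not matched for the number of peaks in reach. Most erythroid, megakaryocyte and stem and progenitor genes were lower, 3 of 7 B lymphoid genes were higher, and the T, NK and myeloid lists had few or no genes called. The 9 erythroid precursor genes had 21 to 23 peaks in knockout and 43 to 55 in wild type, with 8 lower and 0 higher. As a share of each sample's own list they took 0.0418% to 0.0516% in knockout and 0.0749% to 0.0954% in wild type. The 5 megakaryocyte genes had 15 to 19 peaks in knockout and 31 to 33 in wild type, with 3 lower and 0 higher, and their shares did not overlap either (0.0337% to 0.042% in knockout, 0.0535% to 0.0573% in wild type).

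The 7 B lymphoid genes had 52 to 64 peaks in knockout and 32 to 40 in wild type, with 0 lower and 3 higher, and shares of 0.115% to 0.137% in knockout and 0.0555% to 0.0697% in wild type. The 7 stem and progenitor genes all had peaks, 62 to 71 in knockout and 82 to 87 in wild type, with 5 lower and 0 higher. Their shares overlapped, at 0.137% to 0.146% in knockout and 0.142% to 0.151% in wild type. The 6 T and NK genes had 14 to 15 peaks in knockout and 16 to 18 in wild type, with 0 called in either direction and shares that overlapped (0.0299% to 0.0331% in knockout, 0.0278% to 0.0314% in wild type). The 7 granulocyte and monocyte genes had 40 to 43 peaks in knockout and 44 to 47 in wild type, with 1 lower and 1 higher. Their share was higher in every knockout sample, at 0.0856% to 0.0928%, against 0.0764% to 0.0819% in wild type. Each listed gene had a peak in some sample, except 1 of the granulocyte and monocyte genes, Ly6g, which was at 0. Klf1 is both an erythroid marker and a regulator above. The part of cell composition in the globin results was not tested.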

How the data were processed

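The authors deposited 1 list of peaks per sample, 6 in all, each row a chromosome, a start and an end. The submitters' processing notes name MACS2, without a version, and mm10, and the file labels carry a p threshold of 1e-11. The sources used here give no aligner, read filter or shift of insertion sites. Depth per sample is unknown, so no counting interval was computed. No 2 lists were identical.

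Gene spans and promoters came from RefSeq (GRCm38.p6), which held all 7 globin genes and 15 of 16 regulators; Ahsp was not analysed here. Promoter sequences matched 6 of the 7 members. The members and lists were chosen with earlier results of these data known. Named were all members, regulators with a lost or gained region, other genes of the windows with a lost or gained region within 1 kb, and the 5 genes most like Hbb-bs and Hba-a1; Kdm1a, outside this rule, was named after its values were seen. Some items that the lists and this rule take are not reported here. Knockout and wild-type samples were compared by exact permutation, two-sided, over 20 assignments, adjusted by the Benjamini-Hochberg method. Alternatives were leaving out each sample, 20 and 100 kb, the widest 50% of peaks, equal list lengths, other region definitions and a replicate block. The code for the region calls was run on simulated lists with planted lost regions. Those lists did not imitate the shorter knockout lists, so the run cannot show how list length affects the calls. Computations used Python 3.11.15, NumPy 2.4.6 and pandas 2.3.3.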

Additional observations from a re-analysis of the deposited data

How the results depend on the processing

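Leaving out 1 sample at a time, all 42 values of the window comparisons and all 36 counts of regions and genes kept their direction and stayed within 1.5 times the reported value. Under the other alternatives, 28 of 35 window values and 36 of 38 counts did. Leaving out a sample only loosens the calls behind the counts, so the counts could hardly fall and their stability there does not test the calls. The counts include gained regions, which were 0 in every setting and had no direction or size to keep. Within 20 kb of the genes, the alpha-globin difference was -5.0 peaks, -2555 bases and -0.00826 percentage points of the list, with 4 lost regions of 8, and the difference between the clusters was -7.06 percentage points. With the widest 50% of peaks, the difference between the clusters was -4.52, and the share differences were -0.0317 for alpha-globin and -0.0354 for beta-globin, on shorter lists by construction. With lists of equal length, 6 regulator genes were lower without overlap. The groups did not overlap in peaks, bases or share of either cluster under any of these settings. Of single genes, 34 of 110 values moved by over 1.5 times under these alternatives, with 6 of the 7 globin genes among them within 20 kb (Hbb-bs -6.67 peaks, Hba-a2 -2.0), and over all alternatives 7 values turned round, all for the regulators Myb (0.33 peaks, knockout minus wild type) and Zbtb7a (-0.33), whose groups overlapped. Leaving out 1 sample at a time moved Myb between -1.5 and 1.5, with -0.67 without wild-type sample 3, and Zbtb7a between -0.83 and 0.17. Myb was -1.67 both within 20 kb and within 100 kb. Zbtb7a was 0.67 within 100 kb and 0.33 with equal list lengths. The cause was not tested. Leaving out each sample in turn gave 12 to 13 lost beta-globin and 7 to 8 lost alpha-globin regions. With equal list lengths, 11 beta-globin and 7 alpha-globin regions were lost, against 7.25% of all regions. As a replicate block, the exact sign-flip test over equal sample numbers gave p = 0.25 for each window comparison, the smallest that 3 pairs allow. Deviations of same-numbered samples correlated at -0.0221, 0.00554 and 0.019 over regions, so the numbers were not taken to pair the samples. Unknown depth limits every absence of a peak to absence from the deposited list.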
